A study of Rattus norvegicus with 10 samples.

Results

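The genes described here encode the machinery that attaches chromosomes to the spindle, delays anaphase until every chromosome is attached, and then releases the sister chromatids. They were chosen by name, with earlier results of these data known, as 38 genes of the kinetochore, the spindle checkpoint, the chromosomal passenger complex and the anaphase trigger. All 38 were found among the 39784 gene names of the deposited tables. Each stood on 1 entry. RNA was sequenced from wild-type neonatal rat cardiomyocytes, the beating muscle cells of the heart taken soon after birth, that overexpressed either YAP5SA (treatment label Ad-Xon-YAP5SA) or YAP5SA-S94A (Ad-Xon-YAP5SA-S94A). There were 4 RNA-seq libraries, 2 per form, and the 6 CUT&RUN samples of the series, among them the samples with GFP, were not analysed here. YAP is the coactivator restrained by the Hippo pathway, YAP5SA is a form made active by changing inhibitory serines to alanine, and the S94A change disrupts its binding to the TEAD transcription factors. Both groups carry an overexpressed YAP, so each difference is one between the forms and not from untreated cells. The promoter that drives the transgene, the dose and the time after transduction are not stated in the sources used here. The labels call the libraries of a form biological replicates without saying whether they came from separate isolations, and p values measure the spread between these libraries, which may be technical.

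The kinetochore is built in layers on centromeric chromatin. A specialised histone and the inner proteins bind the centromere, an outer network holds microtubules, and a corona and checkpoint proteins assemble on kinetochores that are not yet attached. The checkpoint restrains the anaphase-promoting complex, a ubiquitin ligase whose activation destroys securin and cyclin B and so frees the protease that cuts cohesin. Heart muscle cells leave the cell cycle soon after birth, and transcripts of this machinery are scarce in the adult heart.

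Genes of the kinetochore, checkpoint and anaphase machinery were higher in YAP5SA in every functional class, and the 5 genes not called were Cenpa, Cenph, Mis12, Zw10 and Mad1l1. Of the 38 genes 33 rose and 0 fell, counting a gene as risen or fallen when its adjusted p in limma's moderated test, fitted on log2(TPM + 1) over all 13420 tested genes, lay under 0.05. The same test called 17.4% of all tested genes higher and 15.5% lower. At an unadjusted p under 0.05 the number lower was also 0. A rise of at least 1 on the log2 scale was called for 28 of the 38 genes, against 7.49% of all tested genes. TPM is a level scaled by transcript length and by library, so that it sums to the same total everywhere. Together the 38 genes took 754.5 and 775.8 TPM in the YAP5SA libraries, against 340.2 and 347.5 TPM in the YAP5SA-S94A libraries, a 2.23-fold difference of the means. The median log2 difference of the genes was 1.27, against 0.00 for all tested genes. Both YAP5SA libraries lay above both YAP5SA-S94A libraries for 34 of the 38 genes, which held for 34.5% of all tested genes. All 38 had a mean of at least 1 TPM in the YAP5SA-S94A libraries too, so none entered the test through one group alone. The 4 libraries held 4.02 to 5.10 gigabases of aligned sequence, and with 2 libraries per form the smallest exact permutation p is 0.333. The calls therefore draw on a spread shared between genes. Mitochondrial transcripts took 7.53 and 10.22% of TPM in YAP5SA, against 12.58 and 14.03% in YAP5SA-S94A, and without that chromosome 32 of the 38 genes were called higher and 0 lower. In RNA from whole cultures, more dividing cells and more RNA per dividing cell cannot be told apart.

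**Figure D1:**
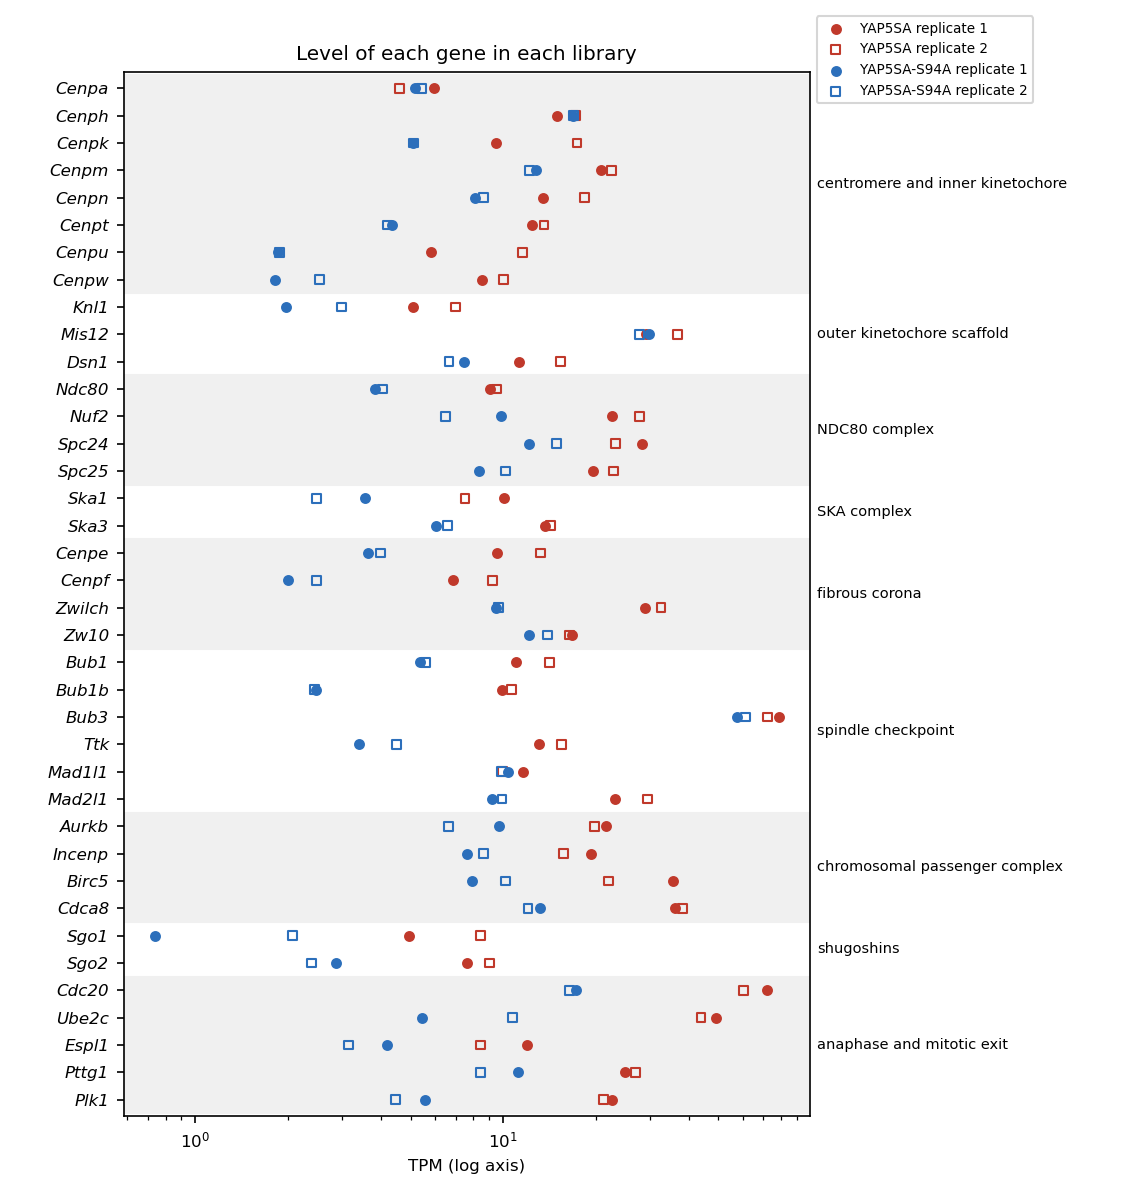
Level of each of the 38 genes in each of the 4 libraries, in TPM on a log axis, with YAP5SA in red and YAP5SA-S94A in blue and 1 point per library. The red points lie right of the blue ones for 34 genes, and the colours mix for Cenpa, Cenph, Mis12 and Mad1l1.

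The promoters of 4 genes are printed because they show the sequence elements that set many mitotic genes apart. Plk1 and Cdc20 were among the genes with the largest differences, and Cenpa and Mis12 were not called by the test. Each is a RefSeq window of 300 bases on GRCr8, from 250 before to 50 after the annotated start, written 5′ to 3′. Capitals mark TTTGAA and CCAAT on either strand. TTTGAA is the core of the CHR element, to which the MuvB complex and its partners bind in mammalian cell cycle genes, and CCAAT is the box bound by NF-Y.
Plk1, chr1:186147408-186147707, plus strand: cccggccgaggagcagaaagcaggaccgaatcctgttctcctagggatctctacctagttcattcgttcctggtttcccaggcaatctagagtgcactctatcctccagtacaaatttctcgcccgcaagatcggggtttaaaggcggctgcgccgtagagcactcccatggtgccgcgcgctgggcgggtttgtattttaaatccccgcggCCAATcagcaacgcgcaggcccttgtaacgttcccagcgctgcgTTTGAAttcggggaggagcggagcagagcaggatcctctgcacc
Cdc20, chr5:137255750-137256049, minus strand: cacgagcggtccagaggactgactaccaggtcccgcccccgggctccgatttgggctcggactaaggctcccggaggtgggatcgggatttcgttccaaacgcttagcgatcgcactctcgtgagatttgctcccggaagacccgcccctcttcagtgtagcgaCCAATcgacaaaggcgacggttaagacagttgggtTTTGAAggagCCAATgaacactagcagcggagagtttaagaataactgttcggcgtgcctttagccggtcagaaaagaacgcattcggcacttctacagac
Cenpa, chr6:31431503-31431802, minus strand: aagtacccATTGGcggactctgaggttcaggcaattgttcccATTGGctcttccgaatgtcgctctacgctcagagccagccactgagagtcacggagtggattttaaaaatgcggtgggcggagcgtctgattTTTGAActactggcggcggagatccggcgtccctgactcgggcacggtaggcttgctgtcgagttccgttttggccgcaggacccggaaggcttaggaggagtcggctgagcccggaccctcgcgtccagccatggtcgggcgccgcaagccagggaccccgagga
Mis12, chr10:56238067-56238366, plus strand: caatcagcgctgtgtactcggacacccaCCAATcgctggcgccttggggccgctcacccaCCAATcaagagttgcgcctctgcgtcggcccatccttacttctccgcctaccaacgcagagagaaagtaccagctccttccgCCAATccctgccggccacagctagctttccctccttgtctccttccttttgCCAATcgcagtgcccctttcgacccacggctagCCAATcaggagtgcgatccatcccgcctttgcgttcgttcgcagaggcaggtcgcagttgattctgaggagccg

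In Plk1 the TTTGAA began at position 7, counted from 1 at the annotated start, with a CCAAT at −38. In Cdc20 it began at −51, between CCAAT boxes at −86 and −41. The Cenpa window held TTTGAA at −116, farther upstream than in any other of these genes, and the Mis12 window held CCAAT 5 times and no TTTGAA. Windows were found for 31 of the 38 genes, and none was used for Cenpt, Zwilch, Zw10, Aurkb, Incenp, Sgo2 and Ube2c. TTTGAA, or its reverse complement TTCAAA, occurred in 18 of the 31 windows (58.1%), against 11.6% of the 10491 windows of tested genes and 18.1% of all 27457 windows. It began within 60 bases of the start in 15 of the 18. CCAAT or ATTGG occurred in 58.1%, against 37.6% of tested genes. The TEAD letters GGAATG or CATTCC occurred in 16.1% (Cenpn, Cenpu, Spc24, Ska3 and Sgo1), against 11.3% of tested genes, and the E2F letters TTCCCGCC or GGCGGGAA in 2 windows (Cenph and Cenpn; 6.5%, against 3.9%). One CHR match shared a base with a CCAAT match, in Cdca8, and no others of different motifs overlapped. The median log2 difference was 1.42 for the 18 genes with TTTGAA and 0.88 for the 13 with a window and no TTTGAA. That split was made for TTTGAA alone and was not tested. A match of letters is not evidence of binding, and no match says only that the letters are not in this window.

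**Figure D2:**
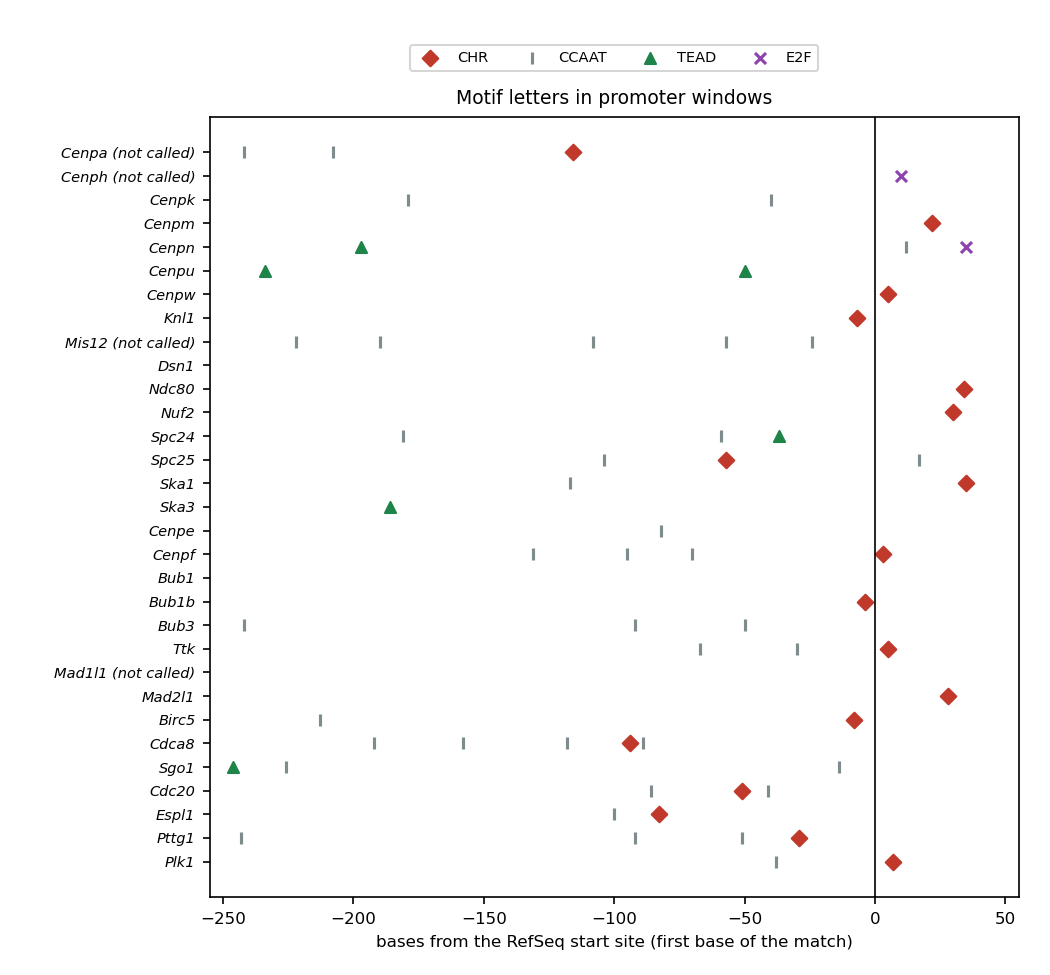
Places of the 4 motifs in the promoter windows of 31 genes, as the first base of each match in bases from the RefSeq start site, 1 row per gene. The CHR letters lie between −116 and 35 in 18 rows, and 15 of them lie within 60 bases of the start.

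At the centromere, the gene of the histone that marks it was not called, whereas most inner kinetochore genes rose. Cenpa, the centromeric histone H3 variant (chromosome 6, 25700142 to 25711767, rn7), stood at 5.95 and 4.61 TPM in YAP5SA, against 5.17 and 5.42 TPM in YAP5SA-S94A. The groups overlapped, and its log2 difference was −0.01 (SE 0.20, limma adjusted p = 0.972). Cenph, a subunit of the inner CENP-H/I/K module, stood at 14.96 and 17.15 TPM in YAP5SA, against 16.88 and 16.92 TPM in YAP5SA-S94A (log2 difference −0.07, SE 0.14, limma adjusted p = 0.729). Neither difference kept its sign when single libraries were left out. The log2 difference of Cenpa was 0.14 without YAP5SA replicate 2 and 0.02 without YAP5SA-S94A replicate 2, and that of Cenph was 0.02 without YAP5SA replicate 1.

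The other 6 inner genes rose. Cenpt, which links centromeric DNA to the outer kinetochore (chromosome 19, 33734684 to 33741159), stood at 12.41 and 13.56 TPM in YAP5SA, against 4.35 and 4.21 TPM in YAP5SA-S94A. Its log2 difference was 1.40 (SE 0.17, limma adjusted p = 8.88e-04). Its partner Cenpw stood at 8.52 and 10.01 TPM in YAP5SA, against 1.81 and 2.53 TPM in YAP5SA-S94A, a log2 difference of 1.70. Cenpu, which recruits Polo-like kinase to kinetochores, stood at 5.84 and 11.56 TPM in YAP5SA, against 1.85 and 1.88 TPM in YAP5SA-S94A. Its YAP5SA libraries differed more from each other than those of any other of the 38 genes (0.88 on the log2 scale), and both were still above the other group. Cenpk, the partner of Cenph in the same module, stood at 9.49 and 17.36 TPM in YAP5SA, against 5.10 and 5.12 TPM in YAP5SA-S94A. Cenpm (0.75) and Cenpn (0.84), which binds the centromeric nucleosome, had the smallest log2 differences of the 6.
The ratio of Cenpt to Cenpa, a pair chosen after the values were seen, was 2.08 and 2.94 in YAP5SA, against 0.841 and 0.777 in YAP5SA-S94A. Genes for the deposition of the centromeric histone, also chosen after the values were seen, were not as even as Cenpa. The chaperone gene Hjurp rose by 0.66 and Mis18a, of the complex that licenses deposition, by 1.44, while Oip5, of the same complex (log2 difference 0.70), was not called (limma adjusted p = 0.124).

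In the outer kinetochore the genes of the NDC80 and SKA complexes, which bind microtubules, all rose. Ndc80, Nuf2, Spc24 and Spc25 form the NDC80 complex, the main microtubule coupler, and all 4 rose. Nuf2 (chromosome 13, 81693675 to 81722765) stood at 22.5 and 27.7 TPM in YAP5SA, against 9.80 and 6.48 TPM in YAP5SA-S94A, with a log2 difference of 1.53 (SE 0.21, limma adjusted p = 0.00173). Ndc80 itself, the lowest of the 4 by TPM in each library, stood at 9.05 and 9.49 TPM in YAP5SA, against 3.84 and 4.06 TPM in YAP5SA-S94A (log2 difference 1.052). Spc25 and Spc24 rose by 1.11 and 0.88. The most abundant subunit stood 3.12 and 2.91 times above the least abundant in YAP5SA, and 3.15 and 3.66 times in YAP5SA-S94A. By TPM, transcript levels within the complex were unequal in both forms. The order of the subunits holds for TPM alone. Over the 4 libraries the deposited coverage, not scaled for depth, ran from 3.419 to 8.007 for Spc25 and from 7.451 to 17.94 for Ndc80.

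The SKA complex, which strengthens the attachment to microtubules, rose likewise. Ska3 stood at 13.71 and 14.21 TPM in YAP5SA, against 6.07 and 6.59 TPM in YAP5SA-S94A (log2 difference 1.03, SE 0.16, limma adjusted p = 0.00262), and Ska1 rose by 1.28. Ska2, the remaining subunit and not among the 38, rose by 0.44.

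The scaffold on which the NDC80 complex sits was less uniform. Nsl1 and Pmf1, further subunit genes of its MIS12 complex and outside the chosen set, were not called. Their log2 differences were 0.49 and 0.21 (limma adjusted p = 0.143 and 0.331). Dsn1, a subunit of the MIS12 complex (chromosome 3, 145652741 to 145668025), stood at 11.22 and 15.30 TPM in YAP5SA, against 7.46 and 6.67 TPM in YAP5SA-S94A (log2 difference 0.81, SE 0.19, limma adjusted p = 0.0169). Knl1, the platform for checkpoint proteins, stood at 5.094 and 7.001 TPM in YAP5SA, against 1.97 and 2.98 TPM in YAP5SA-S94A (log2 difference 1.02, limma adjusted p = 0.0179). Mis12, which gives the complex its name, stood at 29.0 and 36.9 TPM in YAP5SA, against 29.7 and 27.7 TPM in YAP5SA-S94A. Those groups overlapped and the gene was not called (log2 difference 0.18, SE 0.15, limma adjusted p = 0.378), although it was without YAP5SA replicate 1 (0.35, limma adjusted p = 0.0486). The call of Dsn1 was lost without YAP5SA-S94A replicate 2 (limma adjusted p = 0.0530). That of Knl1 was lost without YAP5SA replicate 2 (0.0718) and without YAP5SA-S94A replicate 1 (0.0800).

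The fibrous corona, the outermost layer, captures microtubules laterally. Zwilch, a subunit of the ROD-ZW10-Zwilch complex (chromosome 8, 64638401 to 64670911), stood at 28.9 and 32.5 TPM in YAP5SA, against 9.50 and 9.68 TPM in YAP5SA-S94A, with a log2 difference of 1.58 (SE 0.14, limma adjusted p = 2.40e-04). Its partner Zw10, which also acts in membrane traffic between divisions, stood at 16.7 and 16.5 TPM in YAP5SA, against 12.1 and 13.9 TPM in YAP5SA-S94A. Both YAP5SA libraries of Zw10 were higher, but it was not called (log2 difference 0.33, SE 0.14, limma adjusted p = 0.126). The ratio of Zwilch to Zw10, chosen after the values were seen, was 1.73 and 1.98 in YAP5SA, against 0.783 and 0.695 in YAP5SA-S94A. Cenpe, the kinetochore kinesin, rose by 1.35, and Cenpf, a large corona protein that binds dynein regulators, rose by 1.48 and stood at 6.87 and 9.24 TPM in YAP5SA, against 2.00 and 2.48 TPM in YAP5SA-S94A.

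**Figure D3:**
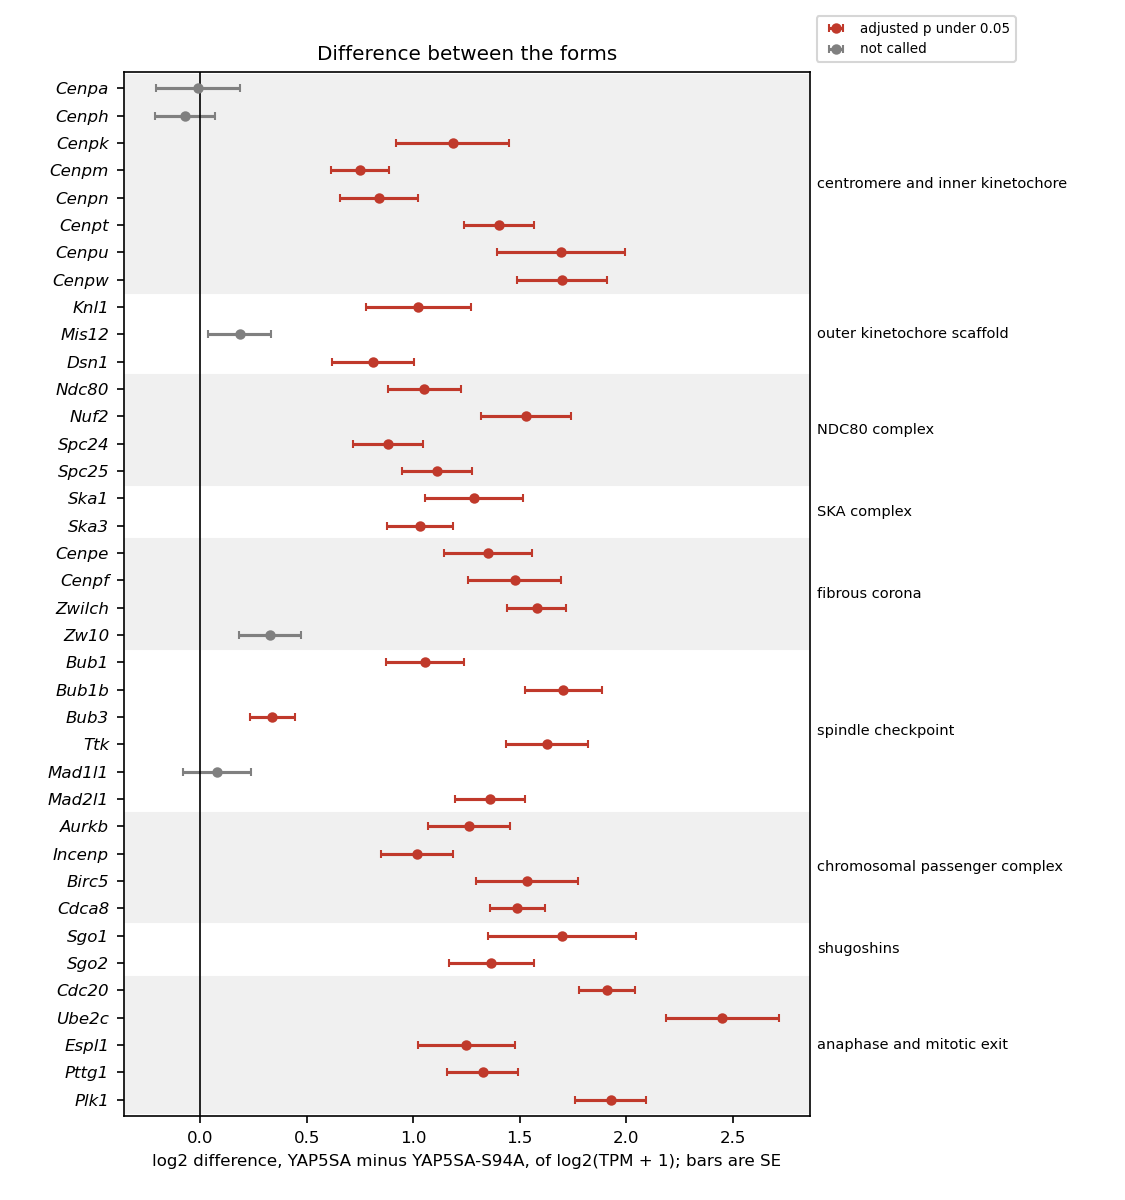
Log2 difference of each of the 38 genes, as log2(TPM + 1) in YAP5SA less that in YAP5SA-S94A, with bars of 1 SE from limma and red for the 33 genes with an adjusted p under 0.05. The 5 grey genes are Cenpa, Cenph, Mis12, Zw10 and Mad1l1, and Ube2c has the largest difference, at 2.45.

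The spindle checkpoint genes split between those that rose strongly and 2 that moved little. Bub1b, which encodes the inhibitor BubR1 of the mitotic checkpoint complex (chromosome 3, 105563089 to 105615547), stood at 9.87 and 10.61 TPM in YAP5SA, against 2.46 and 2.44 TPM in YAP5SA-S94A. Its log2 difference was 1.71 (SE 0.18, limma adjusted p = 5.68e-04). Ttk, the kinase that starts checkpoint signalling, stood at 13.02 and 15.47 TPM in YAP5SA, against 3.39 and 4.50 TPM in YAP5SA-S94A (log2 difference 1.63). Mad2l1, whose product captures Cdc20, stood at 23.1 and 29.4 TPM in YAP5SA, against 9.18 and 9.91 TPM in YAP5SA-S94A (log2 difference 1.36). The kinase gene Bub1 rose by 1.054.

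Mad1l1 encodes the kinetochore template on which Mad2 changes shape. It stood at 11.57 and 9.97 TPM in YAP5SA, against 10.39 and 9.88 TPM in YAP5SA-S94A, with overlapping groups (log2 difference 0.08, SE 0.16, limma adjusted p = 0.746). Without YAP5SA replicate 1 its log2 difference was −0.02. Bub3, the partner that brings Bub1 and BubR1 to kinetochores, was the highest of the 38 by TPM in every library. It stood at 78.5 and 72.1 TPM in YAP5SA, against 57.6 and 61.2 TPM in YAP5SA-S94A. It rose by 0.34 (SE 0.11, limma adjusted p = 0.0474), the smallest difference of the called genes. That call was lost without YAP5SA replicate 1 (0.0559), YAP5SA-S94A replicate 1 (0.371) or YAP5SA-S94A replicate 2 (0.219), and under 4 other settings. The most abundant checkpoint transcript stood 7.95 and 7.23 times above the least abundant in YAP5SA, against 23.4 and 25.1 times in YAP5SA-S94A. The ratio of Bub3 to Bub1b, chosen after the values were seen, was 7.95 and 6.79 in YAP5SA, against 23.4 and 25.1 in YAP5SA-S94A, and that of Mad1l1 to Mad2l1 was 0.502 and 0.339 in YAP5SA, against 1.13 and 0.997 in YAP5SA-S94A.

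The chromosomal passenger complex, which destabilises faulty attachments, rose in all 4 subunits. Cdca8, which encodes borealin (chromosome 5, 137176414 to 137198686), stood at 36.2 and 38.2 TPM in YAP5SA, against 13.20 and 12.03 TPM in YAP5SA-S94A. Its log2 difference was 1.49 (SE 0.13, limma adjusted p = 2.33e-04). Aurkb, the kinase of the complex, stood at 21.6 and 19.8 TPM in YAP5SA, against 9.69 and 6.65 TPM in YAP5SA-S94A (log2 difference 1.26). Birc5, which encodes survivin, stood at 35.5 and 21.9 TPM in YAP5SA, against 7.95 and 10.14 TPM in YAP5SA-S94A. Its YAP5SA libraries were far apart and both above the other group (log2 difference 1.53, SE 0.24, limma adjusted p = 0.00289). The scaffold gene Incenp rose by 1.02.
The shugoshins guard centromeric cohesin. Sgo2 stood at 7.64 and 9.04 TPM in YAP5SA, against 2.86 and 2.38 TPM in YAP5SA-S94A (log2 difference 1.37, SE 0.20, limma adjusted p = 0.00221). Sgo1, which had the lowest mean of the 38 in YAP5SA-S94A (1.41 TPM), stood at 4.94 and 8.45 TPM in YAP5SA, against 0.739 and 2.07 TPM in YAP5SA-S94A. Its log2 difference of 1.70 had the largest SE of the 38, 0.35 (limma adjusted p = 0.00941), and its call was lost without YAP5SA replicate 2 (0.0564).

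The genes that trigger anaphase and mitotic exit had the largest differences as a class. Their 5 transcripts together took 180.4 and 160.5 TPM in YAP5SA, against 43.5 and 43.1 TPM in YAP5SA-S94A, a 3.93-fold difference of the means, with a median log2 difference of 1.91. Ube2c, the ubiquitin-conjugating enzyme that starts chains for the anaphase-promoting complex (chromosome 3, 153506636 to 153509036), stood at 49.1 and 43.9 TPM in YAP5SA, against 5.43 and 10.71 TPM in YAP5SA-S94A. It had the largest log2 difference of the 38, 2.45 (SE 0.27, limma adjusted p = 6.30e-04), although its YAP5SA-S94A libraries differed by 0.87 on the log2 scale. Cdc20, the activator that the checkpoint holds back (chromosome 5, 131966203 to 131970406), stood at 71.9 and 60.1 TPM in YAP5SA, against 17.2 and 16.4 TPM in YAP5SA-S94A. Its log2 difference was 1.91 (SE 0.13, limma adjusted p = 8.525e-05), the smallest p among the 38. Plk1, the Polo-like kinase that acts from mitotic entry to exit (chromosome 1, 176716420 to 176726400), stood at 22.5 and 21.1 TPM in YAP5SA, against 5.58 and 4.46 TPM in YAP5SA-S94A (log2 difference 1.93, SE 0.17, limma adjusted p = 2.27e-04). The promoters of Cdc20 and Plk1 are among those printed above.

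Securin and separase, inhibitor and protease, rose together. Pttg1, the securin gene, stood at 24.9 and 26.9 TPM in YAP5SA, against 11.16 and 8.46 TPM in YAP5SA-S94A (log2 difference 1.33), and Espl1, the separase gene, at 11.94 and 8.42 TPM in YAP5SA, against 4.21 and 3.14 TPM in YAP5SA-S94A (1.25). The ratio of Pttg1 to Espl1, chosen after the values were seen, was 2.09 and 3.20 in YAP5SA, against 2.65 and 2.69 in YAP5SA-S94A, and overlapped between the forms. The ratio of the activator Cdc20 to the checkpoint gene Bub1b overlapped as well, at 7.28 and 5.67 in YAP5SA, against 6.98 and 6.72 in YAP5SA-S94A. That of Cdc20 to Mad2l1 did not, at 3.12 and 2.04 in YAP5SA, against 1.87 and 1.65 in YAP5SA-S94A. Both pairs were chosen after the values were seen.

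The rest of the pathway was read from 7 further lists of 140 genes in all. Of these 73 rose (52.1%) and 3 fell, where 17.4% of all tested genes were called higher and 15.5% lower. Among other kinetochore and centromere genes 12 of 28 rose and 2 fell, with a median log2 difference of 0.59. Those with the smallest p were the outer kinetochore gene Zwint (log2 difference 0.86), Kif2c, a kinesin that removes tubulin at centromeres (1.80), and Cenpp (1.32). The 2 that fell, Clasp2 (−0.61) and Clasp1 (−0.43), encode microtubule-stabilising proteins that also work outside mitosis. Neither fall was called without YAP5SA-S94A replicate 1 or without YAP5SA-S94A replicate 2, and the number of the list that fell was 1 with no filter or no intensity trend.
The anaphase-promoting complex itself moved little beside its activator Cdc20 and its enzyme Ube2c. Of 18 subunits and regulators 4 rose (22.2%, near the 17.4% of all tested genes) and 0 fell. Their median was 0.07, and 1 was lower at an unadjusted p under 0.05. Those with the smallest p were Anapc15 (0.76), a subunit for turning over the checkpoint complex, Fbxo5, the inhibitor EMI1 (1.28), and the core subunit gene Cdc16 (0.40). The number that rose was 2 without YAP5SA-S94A replicate 2, and also with FPKM, no filter, no intensity trend or the mitochondrial chromosome left out. The number that fell was 2 without YAP5SA replicate 1, and 1 with median-of-ratios scaling, the replicate block or the mitochondrial chromosome left out. The ratio of Ube2c to Ube2s, the enzyme that extends the chains, was 0.280 and 0.309 in YAP5SA, against 0.0431 and 0.1004 in YAP5SA-S94A, a pair chosen after the values were seen.

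Cohesin, the substrate of separase, also moved little. Of 14 genes 3 rose (21.4%, near the 17.4% of all tested genes) and 0 fell. Their median was −0.04, and 2 were lower at an unadjusted p under 0.05. The number that fell was 1 without YAP5SA replicate 2, with the replicate block and with the mitochondrial chromosome left out. The 3 that rose were Cdca5, which encodes sororin, the protector of cohesion (1.47), the cleaved subunit gene Rad21 (0.51) and Esco2, an acetyltransferase of S phase (0.99). Of 8 condensin genes 6 rose and 0 fell (0 at an unadjusted p under 0.05), with a median of 0.69, led by Ncapd3 (1.28), Smc2 (1.23) and Ncapg (1.29).

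Neighbouring programmes gave a scale for these differences. Of 23 mitotic kinesin, spindle and cytokinesis genes 21 rose and 0 fell, with a median of 1.25, close to the 1.27 of the 38. Kif20a (2.52), Anln (2.38) and Prc1 (1.59) had the smallest p. Of 15 mitotic entry regulators 7 rose and 1 fell, with a median of 0.66. Ccnb2 (1.70), Cdk1 (2.51) and Mybl2 (1.68) led, and Lin9 fell by 0.85. Of 34 DNA replication genes 20 rose and 0 fell, with a median of 0.67, led by Rrm2 (2.29), Tk1 (1.65) and Cdc6 (1.72). The number of replication genes that rose was 12 without YAP5SA-S94A replicate 1 and 11 with no filter. No list was tested against another.

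**Figure D4:**
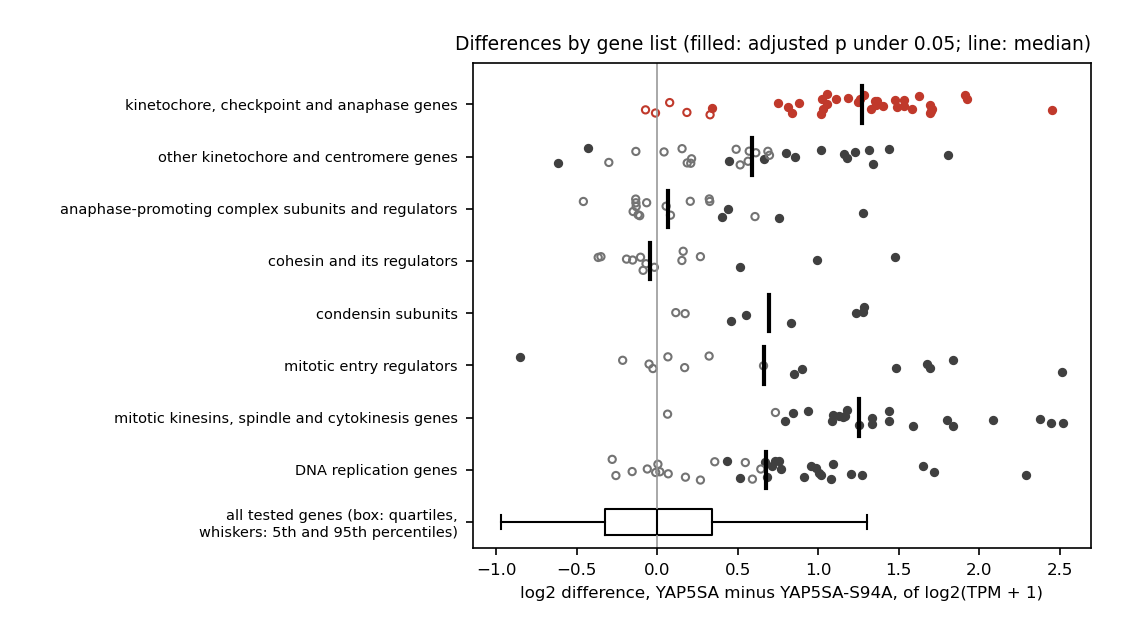
Log2 differences (log2(TPM + 1) in YAP5SA less that in YAP5SA-S94A) of the 38 genes and of 7 related lists, 1 point per gene with called genes filled and a line at each median, above a box of all tested genes. The medians are 1.27 for the 38 genes, 0.07 for the anaphase-promoting complex and −0.04 for cohesin.

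Markers of the cell types that such a culture can hold differed in part between the forms. All 12 cardiomyocyte markers were detected, and 8 fell and 0 rose by limma, while at an unadjusted p under 0.05 Actn2 alone was higher. Their summed level was 25280 TPM in both YAP5SA libraries, against 36280 and 36230 TPM in YAP5SA-S94A. Over all tested genes 17.4% were called higher and 15.5% lower. Of 12 fibroblast markers 2 rose (16.7%) and 2 fell, with overlapping sums of 8686 and 6916 TPM in YAP5SA, against 7383 and 7027 TPM in YAP5SA-S94A. Of 8 epicardial markers 6 were tested and 3 rose (Upk3b, Msln and Krt19), with sums of 99.05 and 83.7 TPM in YAP5SA, against 49.7 and 47.6 TPM in YAP5SA-S94A. The other 3 tested, Wt1 (log2 difference −0.20), Upk1b (−0.37) and Tbx18 (−0.34), were not called. For each of these both YAP5SA libraries lay below both YAP5SA-S94A libraries, which held for 33.8% of all tested genes. The other lists did not move one way. Endothelial markers summed to 33.4 and 34.0 TPM in YAP5SA, against 42.02 and 41.86 TPM in YAP5SA-S94A. Of the 7 tested, Kdr fell (−2.22) and Tek rose (1.42), and without Kdr the sums were 29.4 and 30.7 TPM in YAP5SA, against 20.7 and 22.01 TPM in YAP5SA-S94A. Smooth muscle and pericyte markers summed to 226 and 202 TPM in YAP5SA, against 275 and 302 TPM in YAP5SA-S94A. Abcc9 was the only one of these 8 called (−2.77), and without it the sums overlapped, at 213.6 and 188.7 TPM in YAP5SA, against 186.6 and 201.1 TPM in YAP5SA-S94A. Macrophage markers summed to 562 and 540 TPM in YAP5SA, against 851 and 846 TPM in YAP5SA-S94A, and to 123.8 and 112.0 TPM in YAP5SA, against 137.1 and 136.2 TPM in YAP5SA-S94A, without Lyz2. Of the 8 tested, Lyz2, Cd68 and C1qa fell, and Csf1r, the receptor that defines the lineage, rose by 1.40 (38.2 and 37.5 TPM in YAP5SA, against 14.6 and 12.9 TPM in YAP5SA-S94A). Both YAP5SA libraries lay below both YAP5SA-S94A libraries for 6 of these 8 and above them for 1, Csf1r. The genes left out of these sums were chosen after the values were seen. Cldn5, a defining endothelial marker, was listed at 0 in all 4 libraries. The part of cell composition in the differences of the 38 genes was not tested.

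Some values are less certain than others. The sources used here do not say whether counting used the strand, and Cenpk, Cenpn, Spc25, Ska3 and Sgo2 overlap a gene of at least 1 TPM on the opposite strand. None of those neighbours was called, and their log2 differences were 0.12 for Ppwd1, 0.08 for Cmc2, −0.02 for Nostrin, −0.24 for Mrpl57 and 0.31 for Kctd18. Entries named as pseudogenes of Cenpt, Birc5, Sgo1 and Ube2c held at most 0.0122 TPM. The deposited coverage, brought to the TPM scale, came to 2.5% of the TPM of Cenpk in each library, 18.7 to 20.4% for Spc25 and 26.9 to 27.2% for Mis12. The ratio varied between libraries for Dsn1 (48.1 to 66.8%), Birc5 (49.3 to 63.8%), Bub1 (75.5 to 98.6%) and Incenp (77.3 to 97.6%). With coverage in place of TPM their log2 differences were 1.018, 1.585, 1.202 and 0.889, against 0.809, 1.534, 1.054 and 1.017. Dsn1 also overlaps Rps2-ps10 on the same strand, which had means of 0.08 TPM in YAP5SA and 1.02 TPM in YAP5SA-S94A. The cause of these ratios was not tested.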

How the data were processed

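Libraries were made from poly(A) RNA with strand marking, per the labels' protocols. Per the submitters' processing notes the tools included fastp, HISAT2 2.2.1 and StringTie 2.2.1 with the rat build rn7, and settings were not given in the sources used here. The TPM and FPKM values were computed by the authors and deposited as 1 table per library, with FPKM a fixed multiple of TPM within a library. The deposited Coverage column gives per-base read coverage not scaled for depth, and its highest ratio to FPKM gave the aligned gigabases per library. Read counts were not used here.

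TPM was summed over entries that shared a gene name. The test used log2(TPM + 1), which understates changes of low genes, for every gene whose mean over the 4 libraries reached 1 TPM. It was run in limma 3.58.1 under R 4.3.3 with an intensity trend (degrees of freedom: 2 residual, 5.09 prior), with Benjamini-Hochberg adjustment over all tested genes. Every p printed with a gene is this adjusted p. The method was tested on simulated data in which 200 of 13420 genes changed, fewer than the 4420 called here. It recovered 59% of changes of 1 and 99% of changes of 2 on the log2 scale. Of its 163 calls 5 were false. Python 3.11.15 with pandas 2.3.3 served for the rest. The genes and lists were chosen with earlier results of these data known. All 38 genes are named, with values per library for the smallest p in each class and for every gene not called, and of each further list up to 3 called genes with the smallest p and up to 2 that fell. Promoter windows came from RefSeq on GRCr8, and gene coordinates are those of the deposited tables. Alternatives were another pseudocount, other filters, FPKM, other scalings, no intensity trend, leaving out single libraries (the lone library of a form is then assumed to vary like the others), and a block for the replicate number. Scaled coverage was added after seeing the data.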

Additional observations from a re-analysis of the deposited data

How the results depend on the processing

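The number of the 38 genes called higher was 33 in the main analysis and 27 to 33 under the 13 alternatives, and 0 were called lower under any of them. The lowest, 27, came with no filter. Leaving out single libraries gave 31 to 33. Of the 33 genes 27 stayed called under every alternative in which they were tested. Bub3 lost its call in 7 (limma adjusted p = 0.0559 to 0.371), among them no filter (0.0691), FPKM (0.103), the mitochondrial chromosome left out (0.0904) and no intensity trend (0.106). Cenpk, Cenpn, Knl1, Dsn1 and Sgo1 lost theirs with no filter (0.0798, 0.0595, 0.0796, 0.0712 and 0.0648). With single libraries left out the log2 difference changed sign for 3 genes not called, running from −0.166 to 0.143 for Cenpa (0.018 without YAP5SA-S94A replicate 2), from −0.166 to 0.02 for Cenph and from −0.021 to 0.175 for Mad1l1. The median log2 difference of the 38 was 1.42 with a pseudocount of 0.1 and 1.03 with FPKM. The log2 ratio of their summed level, 1.154, was 1.125 with FPKM, 1.083 without mitochondrial genes and 1.243 with scaled coverage, where Cenpk fell below the filter. Over all genes, those called lower numbered 2083, and 1299 to 2891 with single libraries left out. In the further lists the number that fell was 3, and 1 with no filter, 5 with the mitochondrial chromosome left out, 1 with no intensity trend and 1 to 5 with single libraries left out. With the replicate number as a block, 33 of the 38 were called and 5 genes of the further lists fell. The deviations of same-numbered libraries correlated at 0.101 over genes, and with 2 numbers the labels do not show that these pair the libraries. These are the numbers of the titles. The library names are numbered otherwise, and there YAP5SA replicate 2 shares its number with YAP5SA-S94A replicate 1, a pairing that was not fitted. The cause of these shifts was not tested.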

Other observations

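Genes of the MuvB complex and its partners, which bind the CHR element printed above, differed in direction; they were picked out after their values were seen. Mybl2 (B-MYB) stood at 14.6 and 13.3 TPM in YAP5SA, against 4.09 and 3.31 TPM in YAP5SA-S94A, and Foxm1 at 9.13 and 9.88 TPM in YAP5SA, against 4.27 and 5.43 TPM in YAP5SA-S94A. Both rose (log2 differences 1.68 and 0.85, limma adjusted p = 5.81e-04 and 0.0122). The core subunit gene Lin9 stood at 5.37 and 9.30 TPM in YAP5SA, against 13.2 and 14.1 TPM in YAP5SA-S94A, and fell by 0.85 (limma adjusted p = 0.0321). That call was lost with no filter and with no intensity trend. Lin37 (log2 difference −0.05), Lin52 (−0.21) and Lin54 (0.32) were not called (limma adjusted p = 0.815, 0.299 and 0.183).

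The 2 YAP5SA libraries were not equal for these genes. Of the 38, 25 were higher in replicate 2 than in replicate 1, against 38.9% of all tested genes, with a median log2 difference between the libraries of 0.11 for the 38 and −0.08 for all tested genes. The range ran from −0.67 for Birc5 to 0.88 for Cenpu. Between the YAP5SA-S94A libraries 23 of the 38 were higher in replicate 2, against 50.1% of all tested genes, with a median of 0.04 for the 38 and 0.00 for all tested genes.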
